A study of Mus musculus with 7 samples.

Results

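The family of miR-130 and miR-301 comprises the mature miRNAs cut from the hairpins mir-130a, mir-130b, mir-301a and mir-301b. All arms of these 4 hairpins on the array were taken as members, which gave 5 of the 696 mouse miRNAs measured: miR-130a-3p, miR-130b-3p, miR-130b-5p, miR-301a-3p and miR-301b-3p. The cells were soft tissue sarcoma cells from p53 null mice, so that every group, control included, lacked p53. Control primary cells carried the control shRNA (SHC002, labelled Non-target; 2 arrays) and Rb-depleted primary cells the Rb shRNA (TRCN0000042543, labelled shRb1; 2 arrays), both selected with puromycin and grown as a monolayer. Rb-depleted secondary cells (3 arrays) were retrieved from spheres that Rb-depleted cells had formed in serum-free methylcellulose with EGF, bFGF and B27, and were passaged once in 2D culture. No secondary cells with the control shRNA were measured on these arrays, and a single Rb shRNA was used, so passage through spheres was seen only in Rb-depleted cells. The knockdown could not be checked here because Rb1 is not a miRNA.

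A mature miRNA guides a silencing complex to messages that pair with its seed, the bases 2 to 8 counted from its 5′ end, and miRNAs with one seed share most predicted targets. Its members are found in many tissues and are known to repress the message of PPARγ, a factor that drives fat cell formation. The 3p arm carries the family seed, whereas the 5p arm of the hairpin is the partner strand with a seed of its own.

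The mature sequences are shown 5′ to 3′ as RefSeq gives them, with bases 2 to 8 in capitals, because they decide which miRNAs belong together below. RefSeq held 4 of the 5 members, and miR-301b-3p is given by name only.
miR-130a-3p: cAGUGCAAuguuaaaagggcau
miR-130b-3p: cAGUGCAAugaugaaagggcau
miR-301a-3p: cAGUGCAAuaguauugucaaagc
miR-721: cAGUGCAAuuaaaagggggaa
miR-130b-5p: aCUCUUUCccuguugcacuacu
miR-148b-3p: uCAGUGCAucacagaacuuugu
miR-19b-3p: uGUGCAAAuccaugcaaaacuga
The 3p arms of mir-130a, mir-130b and mir-301a shared the seed AGUGCAA, and so did miR-721, which comes from another hairpin. Position by position from the 5′ end, miR-130a-3p and miR-130b-3p differed at 2 of 22 bases, U11A and A13G. MiR-130a-3p and miR-301a-3p differed at 10 of the 22 positions they have in common, all outside the seed. MiR-130b-5p had the seed CUCUUUC. MiR-148b-3p and miR-19b-3p are shown because their seeds hold 6 letters of the family seed in a row, moved by 1 base in either direction. Whether the probes of 1 member also bound another was not tested.

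The 4 hairpins lie at 3 places in the mouse genome (NCBIM37, the build of the array design, with the GENCODE annotation). The hairpin of miR-130a lies on the minus strand at chr2:84581272-84581335, overlaps no other annotated gene, and is 2460 bases from Ypel4. That of miR-301a, annotated as Mir301, lies on the plus strand at chr11:86926506-86926591 in an intron of Fam33a, also called Ska2, a gene of the spindle and kinetochore. Those of miR-130b (chr16:17124154-17124235) and miR-301b (chr16:17124493-17124589) lie 257 bases apart on the minus strand in an intron of 2610318N02Rik. The transcripts of the hosting genes were not measured on these arrays.

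A 1-colour array gives 1 brightness for each probe, and the scanner software sums the probes of a miRNA into a total gene signal and states whether the miRNA was detected. Of the 696 mouse miRNAs, 258 to 287 were detected per array, 312 on at least 1 array and 252 on all 7. These 252 make up the deposited table of quantile-normalized log2 values, to which the tests across miRNAs were applied. The 4 arrays of primary cells and 1 of secondary cells lay on one slide, and the other 2 arrays of secondary cells on a second. Of the marker miRNAs, the 5 of mesenchymal cells were detected on all 7 arrays (summed total gene signal 7436 to 10848), and the 5 of epithelial cells were detected on none. Of 5 blood markers 4 were detected on none and miR-451a on 1 array (8.81). Of 2 endothelial markers, miR-126-3p was detected on the 4 primary arrays only (7.02 to 10.73), and of 4 skeletal muscle markers 1 was detected on all 7 (12.9 to 47.0) and 3 on none. The part of these in the results was not tested. The study calls the replicates independent experiments without tying them to separate tumors, so the p-values measure the spread between these arrays.

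Of the 5 members, miR-130a-3p and miR-301a-3p were in the table and were well above the limit of detection. MiR-130b-3p was weak and called detected on some arrays only, and miR-130b-5p and miR-301b-3p were detected on no array. In the deposited values both miRNAs of the table were higher in Rb-depleted secondary cells than in control primary cells, by 1.37-fold and 1.31-fold. The same values before normalization were nearly level, as described below.

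The deposited log2 value of miR-130a-3p was 10.66 and 10.69 on the arrays of control primary cells, 11.10 and 10.98 on those of Rb-depleted primary cells, and 11.05, 11.10 and 11.23 on those of Rb-depleted secondary cells. Each of the 5 arrays of Rb-depleted cells lay above both control arrays, while the 2 kinds of Rb-depleted cells overlapped. The means were 10.67 ± 0.022 (SD, n = 2), 11.04 ± 0.083 (SD, n = 2) and 11.12 ± 0.095 (SD, n = 3). MiR-130a is known from endothelial cells, where it represses homeobox genes that restrain vessel growth.

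The deposited log2 value of miR-301a-3p was 9.19 for control replicates 1 and 2 alike, 9.42 and 9.55 on the arrays of Rb-depleted primary cells, and 9.61, 9.47 and 9.68 on those of Rb-depleted secondary cells. The groups stood to one another as for miR-130a-3p, with all 5 arrays of Rb-depleted cells above the control arrays and the 2 kinds of Rb-depleted cells overlapping. The means were 9.19 ± 0 (SD, n = 2), 9.48 ± 0.092 (SD, n = 2) and 9.59 ± 0.108 (SD, n = 3). The equal control values came from the normalization, which gave the same number to the same rank (72 on both arrays), since the total gene signals were 696 and 767. MiR-301a is known in tumors as a miRNA that raises NF-κB activity.

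**Figure D1:**
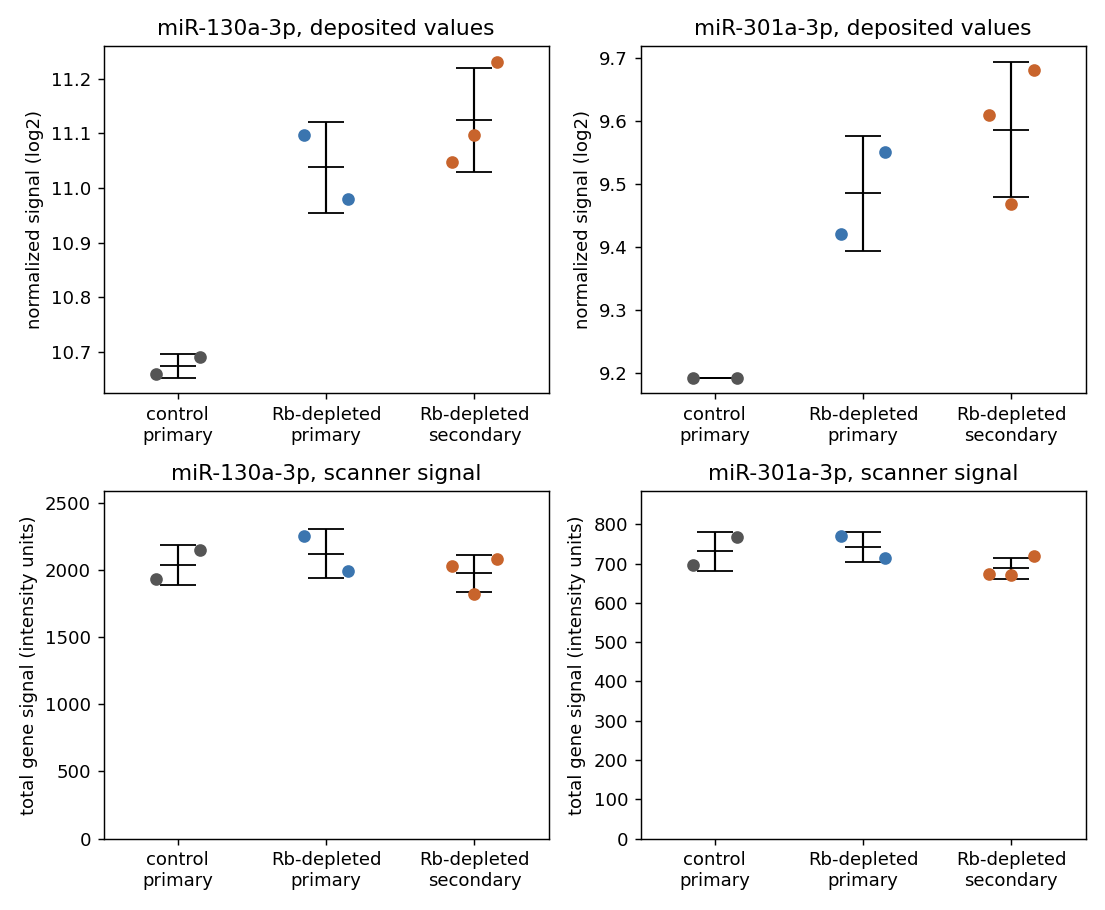
Values of miR-130a-3p (left) and miR-301a-3p (right) on each array by group, as deposited (top, normalized signal, log2) and as the scanner gave them (bottom, total gene signal in intensity units from 0). Points are arrays, and the horizontal bars and whiskers are the mean and SD; in the top panels all 5 arrays of Rb-depleted cells lie above the control arrays, and in the bottom panels the 3 groups overlap.

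Across the 3 groups, both members passed limma's moderated F-test with Benjamini-Hochberg adjustment at a threshold of 0.1 (0.0412 for miR-130a-3p and 0.0605 for miR-301a-3p), as did 43.3% of the 252 miRNAs. Between Rb-depleted primary and control primary cells, a comparison within 1 slide, the difference was 0.36 on the log2 scale for miR-130a-3p (standard error 0.096, 1.29-fold, adjusted p = 0.113 by limma) and 0.29 for miR-301a-3p (standard error 0.102, 1.23-fold, adjusted p = 0.155 by limma). Neither passed an adjusted p of 0.05, where 1.59% of the 252 miRNAs did. Every array of Rb-depleted primary cells was above every control array for both members and for 31.0% of all 252 miRNAs. Ranked from the highest difference, the members stood at 32 and 50 of 252.

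Between Rb-depleted secondary and control primary cells, both members passed. The difference was 0.45 for miR-130a-3p (standard error 0.088, 1.37-fold, adjusted p = 0.0246 by limma) and 0.39 for miR-301a-3p (standard error 0.093, 1.31-fold, adjusted p = 0.0368 by limma). In this comparison 22.6% of the 252 miRNAs passed, and every secondary array was above every control array for 29.8%. The members stood at ranks 41 and 46 of 252. With the slide as a term the differences rested on the 1 secondary array that shared the slide of the primary cells, and were 0.37 (adjusted p = 0.125 by limma) and 0.42 (adjusted p = 0.126). When either control array was left out, the adjusted p by limma was 0.0992 to 0.163 for both members. It was 0.0508 to 0.0961 without secondary replicate 1 or 3, and 0.0508 for miR-301a-3p without either array of Rb-depleted primary cells.

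Between the secondary and primary cells with Rb depleted, the difference was 0.087 for miR-130a-3p (standard error 0.088, adjusted p = 0.506 by limma) and 0.101 for miR-301a-3p (standard error 0.093, adjusted p = 0.453). Each was about the size of its standard error. In this comparison 20.2% of the 252 miRNAs passed and for 27.0% every secondary array was above every primary one, which was true of neither member. The comparisons with control share the control arrays. The study's rule asks for an adjusted p under 0.1 across the groups. It then asks for a Dunnett-adjusted p under 0.05 and the same direction in both comparisons. Applied to limma's moderated statistics in place of the classical tests that the study used, it took 6.75% of the 252 miRNAs (5.16% with the classical tests), and these calls are those of the present fits, not the study's list. In the present fits miR-130a-3p met it (Dunnett-adjusted p by limma 0.0186 in primary and 0.00483 in secondary cells). MiR-301a-3p missed the threshold in primary cells (0.0531 and 0.0114). The miRNAs that the study itself selected by its rule include neither member. With the classical tests the rule also took 1 member here. Of the 252 miRNAs, 62 then passed the F-test and 13 were selected. Both numbers are higher than those the study reports, so its list was not reproduced, and the cause was not tested.

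Before normalization these differences were not seen. The total gene signal of miR-130a-3p was 1934 and 2145 on the arrays of control primary cells, 2249 and 1996 on those of Rb-depleted primary cells, and 2026, 1818 and 2082 on those of Rb-depleted secondary cells. That of miR-301a-3p was 696 and 767, then 769 and 715, and then 672, 672 and 719. In both the 3 groups overlapped. On the log2 scale without normalization, miR-130a-3p differed from control by 0.057 (standard error 0.154) in Rb-depleted primary and by -0.046 (standard error 0.140) in Rb-depleted secondary cells, and miR-301a-3p by 0.021 (standard error 0.143) and -0.088 (standard error 0.130).

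The rest of the table moved more than the members did. The median of the 252 miRNAs without normalization was lower than in control cells by a log2 difference of -0.26 for the primary and -0.46 for the secondary cells with Rb depleted. Relative to this median, miR-130a-3p was higher by 0.32 and 0.41, and miR-301a-3p by 0.28 and 0.37. Added up over the 252 miRNAs, the signal was 538586 and 550498 in control cells and 432616 to 501515 on the 5 other arrays. Among the 696 miRNAs ordered by signal on each array, miR-130a-3p stood at ranks 42 and 41 in control cells and 29 to 34 in Rb-depleted cells, and miR-301a-3p at 72 and 72 and then 57 to 67. A higher amount of the members and a lower amount of the other miRNAs cannot be told apart from these values. Scaled to the 75th percentile of the table's miRNAs, the differences from control in secondary cells were 0.41 for miR-130a-3p (adjusted p = 0.139 by limma) and 0.36 for miR-301a-3p (adjusted p = 0.140).

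**Figure D2:**
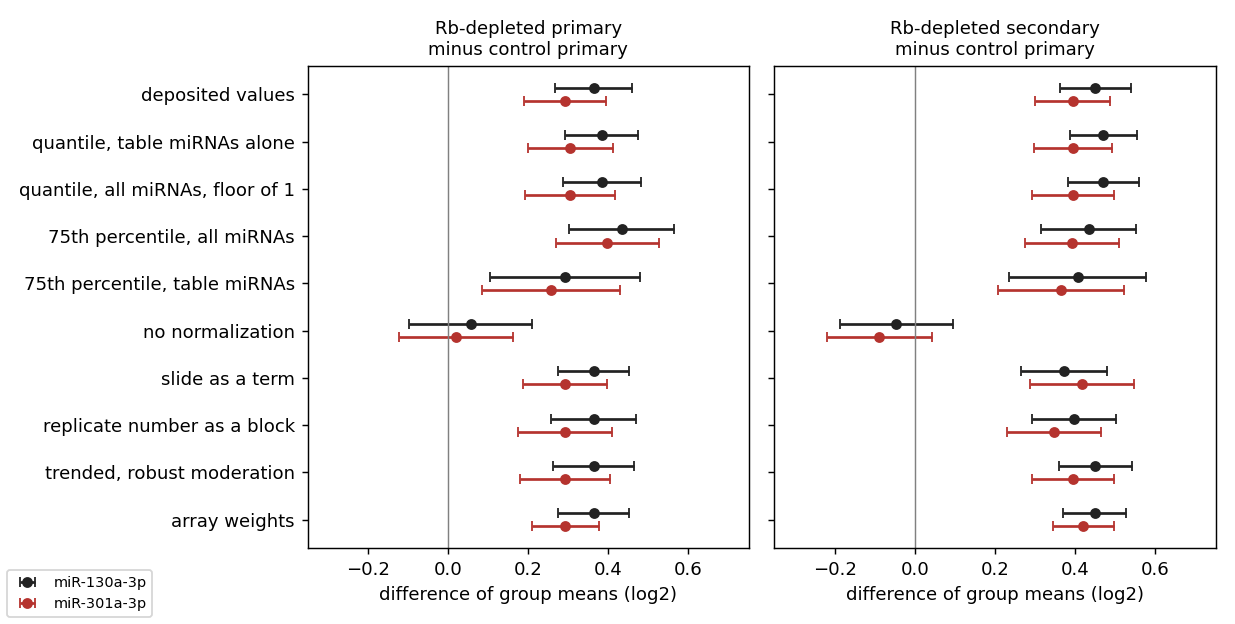
Difference of group means (log2) from control primary cells for miR-130a-3p (black) and miR-301a-3p (red) in Rb-depleted primary (left) and Rb-depleted secondary cells (right), for the deposited values and 9 other ways of normalizing or fitting. Bars are standard errors from limma; the deposited values give 0.36 and 0.29 on the left and 0.45 and 0.39 on the right, and without normalization all 4 differences lie within 1 standard error of 0.

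The spots of each probe give the precision within an array. Each of the members miR-130a-3p, miR-301a-3p and miR-130b-3p had 2 probes on 10 spots each. The spots of a probe varied by a median of 8.10% (coefficient of variation) for miR-130a-3p and 6.52% for miR-301a-3p, and 0 spots were saturated. The probes of miR-130a-3p gave near equal signals (ratio of the first to the second 0.804 to 0.902 over the arrays), whereas the first probe of miR-301a-3p was 2.63 to 3.05 times as bright as the second. Signals of different miRNAs therefore do not compare their amounts.

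Within an array, a factor common to all miRNAs cancels in the difference between the members. The deposited log2 value of miR-130a-3p exceeded that of miR-301a-3p by 1.48 ± 0.022 (SD, n = 2) in control primary, 1.55 ± 0.175 (SD, n = 2) in Rb-depleted primary and 1.54 ± 0.096 (SD, n = 3) in Rb-depleted secondary cells. Differences between the groups held 10.4% of the sum of squares (exact permutation test over the 210 splits of the arrays into groups of these sizes, one-sided, p = 0.800, with 0.00952 the smallest p possible). From the scanner signal, which no normalization touched, the group means were 1.48, 1.52 and 1.52 (exact permutation test, p = 0.771). A difference in the ratio of the members between groups was thus not detected on these arrays. The group means lay within the range of the Rb-depleted arrays, but further apart than the 2 control arrays.

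MiR-130b-3p, which differs from miR-130a-3p at the 2 positions above, was called detected on 3 arrays. Its total gene signal was 8.90 on Rb-depleted primary replicate 1, 23.9 on Rb-depleted secondary replicate 2 and 19.7 on Rb-depleted secondary replicate 3, against 672 to 2249 for the members in the table. The lowest signal called detected for any miRNA ranged from 3.38 to 5.37 over the arrays. Ordered by signal, miR-130b-3p stood at ranks 268, 210 and 224 on these 3 arrays, where 285, 276 and 283 miRNAs were detected. It was thus among the weaker miRNAs detected, and closest to the limit on the primary array. On the other 4 arrays, the control arrays among them, the software gave it the fixed value of an undetected miRNA, 0.1.

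The probes give a finer view, because their signals are recorded on every array whether or not they pass detection. Summed over both probes, the signal of miR-130b-3p was 8.60 and 13.1 on the arrays of control primary cells, 12.1 and 9.04 on those of Rb-depleted primary cells, and 15.1, 23.9 and 19.7 on those of Rb-depleted secondary cells, with errors given by the software of 3.02 to 4.83. The secondary arrays were the 3 highest, and control and Rb-depleted primary cells overlapped. The means were 10.9 ± 3.21 (SD, n = 2), 10.6 ± 2.18 (SD, n = 2) and 19.6 ± 4.42 (SD, n = 3). Differences between groups held 71.2% of the sum of squares (exact permutation test over 210 splits, one-sided, p = 0.124, smallest possible 0.00952). Scaled to the median of each array, the means were 8.655, 10.96 and 22.27 (exact permutation test, p = 0.114). A difference between the groups was thus not detected, which on so few arrays does not show that they were equal. Among the 252 miRNAs of the table, every secondary array was above every control array for 29.8%, and above every Rb-depleted primary array for 27.0%. The share among miRNAs outside the table was not counted.

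Detection itself turned on small differences. The second probe of miR-130b-3p gave 8.17 on control replicate 2, which was 2.58 times its error and was not called, and 8.90 on Rb-depleted primary replicate 1, which was 3.33 times its error and was. On Rb-depleted primary replicate 2 the same probe reached 2.99 times its error and was not called either. The call on Rb-depleted primary replicate 1 thus does not set it above the control arrays. The 2 secondary arrays with both probes called (3.04 to 5.45 times the error) lay on the second slide, and the secondary array on the first slide had 15.1, so for this member slide and cell group cannot be told apart.

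MiR-130b-5p, the partner strand, had summed probe signals of 0.473 to 2.76 over the 7 arrays, with errors of 2.08 to 3.32. MiR-301b-3p had summed probe signals of -5.28 to -0.858, with errors of 2.07 to 3.32. Both were undetected on all 7 arrays, as were 384 of the 696 miRNAs, and differences in them between the groups were not detectable on these arrays. Of the 2 hairpins on chromosome 16, only mir-130b thus gave a signal called detected here, on 3 of 7 arrays.

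**Figure D3:**
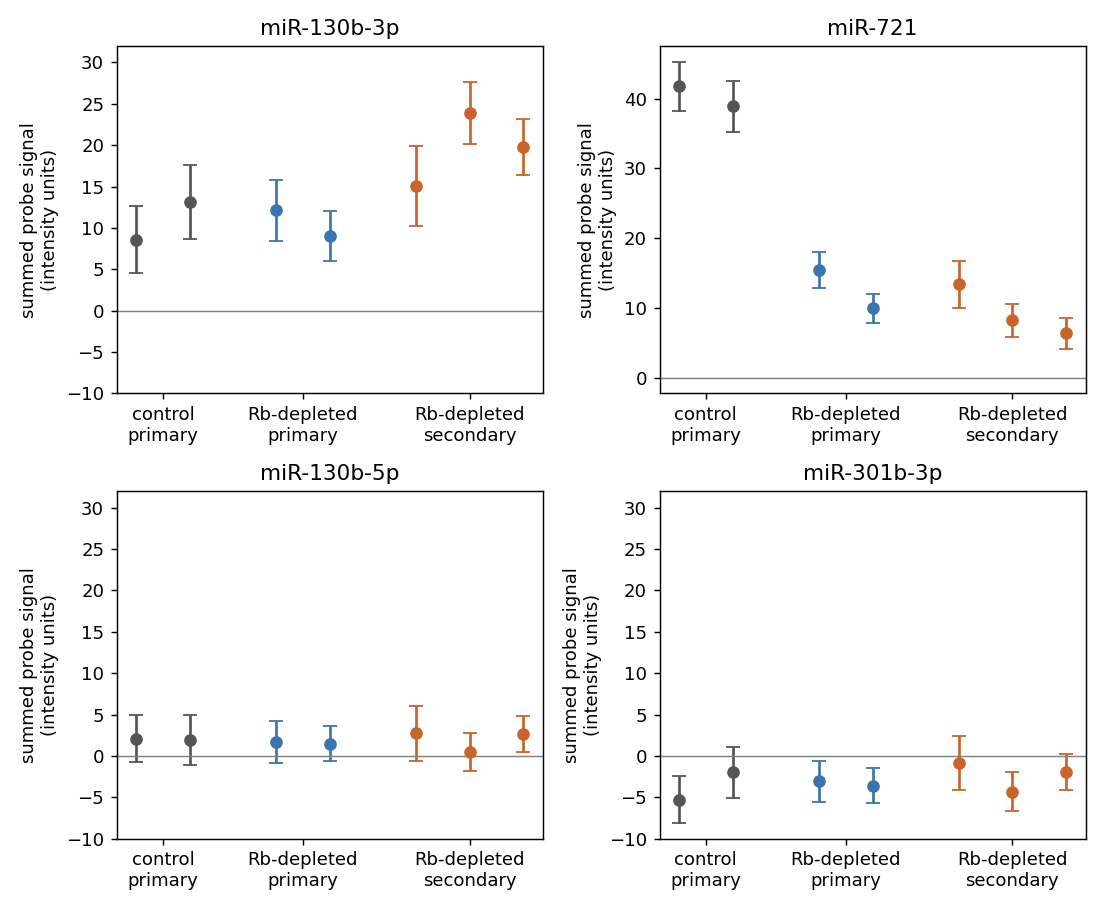
Summed probe signal (intensity units, background subtracted) on each array for miR-130b-3p, miR-721, miR-130b-5p and miR-301b-3p by group, with the error given by the scanner software as bars. MiR-130b-3p is highest on the 3 secondary arrays (15.1 to 23.9), miR-721 on the 2 control arrays (38.9 and 41.8), and the other 2 stay near 0 on all arrays; the vertical scale of miR-721 differs from that of the others.

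MiR-721 has the full seed of the family but is no member by hairpin, and it was also outside the table, with 4 probes on 5 spots each. Its summed probe signal was 41.8 and 38.9 on the arrays of control primary cells, 15.4 and 9.91 on those of Rb-depleted primary cells, and 13.3, 8.23 and 6.37 on those of Rb-depleted secondary cells, with errors of 2.13 to 3.63. Both control arrays were above all 5 arrays of Rb-depleted cells, which overlapped among themselves. The means were 40.3 ± 2.06 (SD, n = 2), 12.7 ± 3.90 (SD, n = 2) and 9.32 ± 3.62 (SD, n = 3), and differences between groups held 96.5% of the sum of squares (exact permutation test over 210 splits, one-sided, p = 0.0381, smallest possible 0.00952). This test was chosen after the values were seen, and how many other miRNAs outside the table separate in this way was not counted. MiR-721 was called detected on 2 of 2 control arrays, 1 of 2 Rb-depleted primary arrays and 0 of 3 secondary arrays. In the same scanner signal the groups overlapped for miR-130a-3p and miR-301a-3p.

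The other miRNAs whose first 9 bases hold 6 letters of the family seed in a row were miR-19a-3p and miR-19b-3p, made from the oncogenic cluster of miR-17 and its paralog, the family of miR-148 and miR-152 (miR-148a-3p, miR-148b-3p and miR-152-3p), and miR-291b-3p, a miRNA of the embryonic stem cell cluster that was detected on no array. The 5 in the table were detected on all 7 arrays. Between Rb-depleted primary and control primary cells 0 of 5 passed an adjusted p of 0.05 by limma (1.59% of all 252), with a median log2 difference of -0.055 (0.0082 over all 252 miRNAs). Between Rb-depleted secondary and control primary cells 4 of 5 passed (22.6% of all 252), all higher in secondary cells (median 0.60 against 0.032 over all), and miR-19a-3p had a difference of 0.36 (adjusted p = 0.137). Between secondary and Rb-depleted primary cells 5 of 5 passed (20.2% of all 252, median 0.56 against 0.021 over all), where neither member of the family did. Both counts were 0 with the slide as a term or the replicate block and 1 by the classical test, and without normalization they were 1 and 2. Scaled to the 75th percentile of the table's miRNAs they were 1 and 4, and over all mouse miRNAs with a floor 2 and 2. Of all 252 miRNAs, 2 were higher and 4 lower against control with the slide as a term, and 0 and 4 with the replicate block. By the classical test they were 15 and 19. Against Rb-depleted primary cells 0 of the 252 passed with the slide or the block, and 9 were higher and 6 lower by the classical test. With each array left out in turn, 0 to 4 of the 5 passed in both of these comparisons, the fewest without control replicate 1 in the former and without either Rb-depleted primary array or secondary replicate 3 in the latter. The differences between the lists were not tested.

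The largest of these differences was in miR-148a-3p, which is known to repress a DNA methyltransferase. Its deposited log2 value was 6.57 and 6.92 on the arrays of control primary cells, 6.65 and 6.74 on those of Rb-depleted primary cells, and 8.07, 7.58 and 8.76 on those of Rb-depleted secondary cells. It differed between secondary and Rb-depleted primary cells by 1.44 (standard error 0.346, adjusted p = 0.0413 by limma), and without normalization by 1.36 (adjusted p = 0.0241). For miR-152-3p the difference was 0.85 (standard error 0.208, adjusted p = 0.0428), and for miR-148b-3p it was 0.46 (standard error 0.080, adjusted p = 0.0176). MiR-19b-3p differed by 0.43 (standard error 0.089, adjusted p = 0.0307) and miR-19a-3p by 0.56 (standard error 0.145, adjusted p = 0.0476). With the slide as a term 0 of the 5 passed between secondary and Rb-depleted primary cells (adjusted p by limma 0.107 to 0.231). Neither did any other of the 252 miRNAs. All 5 differences remained above 0. Without normalization, miR-148a-3p was the 1 of the 5 that passed against control in secondary cells (0.92, adjusted p = 0.0465 by limma). The difference was then 0.47 for miR-152-3p (adjusted p = 0.110), 0.058 for miR-148b-3p (adjusted p = 0.730), -0.0030 for miR-19a-3p and -0.11 for miR-19b-3p.

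**Figure D4:**
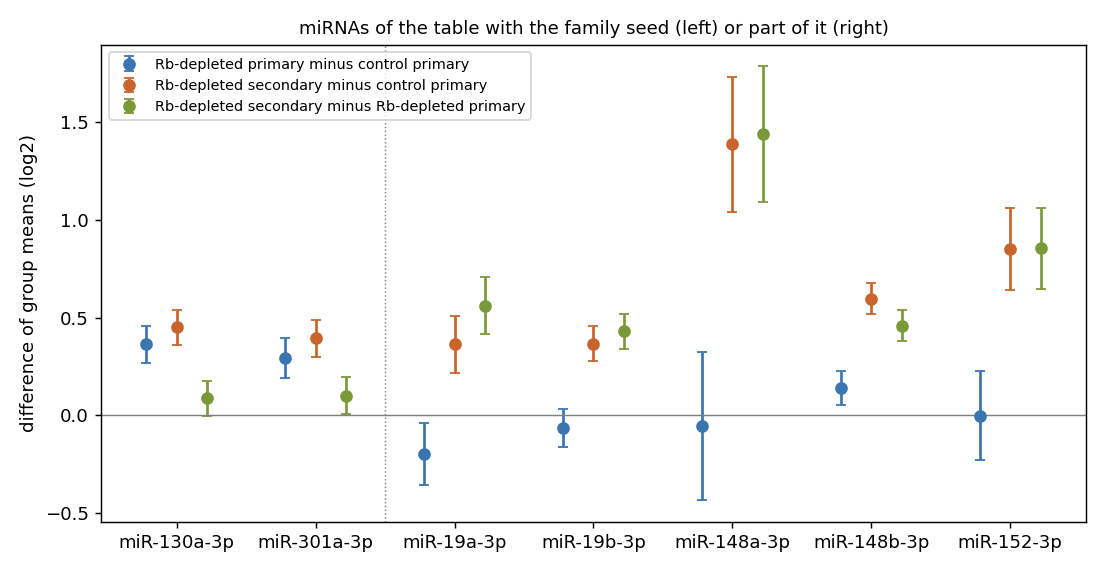
Difference of group means (log2) in the deposited values for the members in the table (left of the dotted line) and the 5 miRNAs with 6 letters of the family seed (right), with standard errors from limma as bars. For the members the differences from control (blue and orange) were 0.29 to 0.45 and that between secondary and Rb-depleted primary cells (green) at most 0.101; for the others the blue points lie near 0 (-0.20 to 0.14) and the green points between 0.43 and 1.44.

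The miRNAs whose deposited values followed miR-130a-3p most closely over the 7 arrays were miR-1839-3p (Pearson's r 0.978), miR-218-5p (0.965) and miR-132-3p (0.916). Those closest to miR-301a-3p were miR-7a-1-3p (0.969), miR-34c-5p, of a family known to be induced by p53 (0.945), and miR-155-5p, best known from immune cells (0.941). The members correlated with each other at 0.896. The neighbours were picked as the highest of all other miRNAs, so the lower value between the members is no result about them. The arrays are the same for all of these and share their normalization, so the correlations are descriptions. MiR-7a-1-3p stood at 3.38 and 3.64 in control and 4.24 to 5.11 in secondary cells, and miR-1839-3p at 4.93 and 4.90 in control and 5.57 to 5.88 in secondary cells.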

How the data were processed

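Total RNA (100 ng) was labelled with Cy3 and hybridized to mouse miRNA arrays (Agilent, 8 x 15K, Release 15.0). As log2 values, the authors deposited a table made in GeneSpring by quantile normalization, which holds 252 mouse miRNAs and 11 control rows, beside the scanner's intensity of each spot, probe and miRNA. Feature Extraction was version 10.7.3.1 per the labels and 11.0.1.1 per the file headers. Quantile normalization of the log2 total gene signal of 718 features gave the deposited log2 values to within 3.2e-06, which linked the table's older names to the scanner names one to one (57 spelled alike, 195 otherwise).

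The deposited values were fitted with limma 3.58.1 in R 4.3.3 (statmod 1.5.0; Python 3.11.15, numpy 2.4.6, pandas 2.3.3) with 3 group means over 7 arrays, adjusted over 252 miRNAs by Benjamini-Hochberg, with thresholds of 0.1 for the F-test and 0.05 for contrasts. The procedure was tested on simulated data with planted log2 changes of 1, which is larger than the differences of the members. How often it finds differences of their size was not tested. Named miRNAs were all arms of the 4 hairpins, miRNAs with 6 letters of the seed within bases 1 to 9, and the 3 closest to each member by Pearson's r. The members and lists were chosen with earlier results of these data known. The alternatives were other normalizations, fits and thresholds, and each array left out. The number of arrays limits the precision. Of the 696 miRNAs, 542 had a mature sequence in RefSeq (GRCm38.p6 table), and loci were read from NCBIM37.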

Additional observations from a re-analysis of the deposited data

Results flagged for a closer look

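One member outside the normalized table had signal above the value given in control cells. The total gene signal of miR-130b-3p was 8.90 on Rb-depleted primary replicate 1, 23.9 on Rb-depleted secondary replicate 2 and 19.7 on Rb-depleted secondary replicate 3, where both control arrays had the fixed value of an undetected miRNA. Summed over both probes, the signal on Rb-depleted primary replicate 1 was 12.1, below that of control replicate 2 (13.1). The 2 secondary arrays were above both control arrays in the summed probe signal and lay on the second slide.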

How the results depend on the processing

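Of 17 alternatives, the difference of miR-130a-3p between secondary and control cells was above 0 in 16 and passed in 9, and that of miR-301a-3p was above 0 in 16 and passed in 4. Without normalization it was -0.046 and -0.088, and between secondary and Rb-depleted primary cells -0.103 and -0.109 (miR-301a-3p -0.0060 when scaled to the 75th percentile of all mouse miRNAs). The number of members past the F-test, 2 in the deposited values, was 0 when scaled to the 75th percentile of the table's miRNAs, without normalization, with the slide as a term and with the replicate block, and 1 at an adjusted p of 0.05. The number past the comparison of secondary with control cells, also 2, was 0 under these same 4 alternatives. It was 1 when scaled to the 75th percentile of all mouse miRNAs or fitted over all mouse miRNAs with a floor. It was also 1 by the classical test without moderation, which was added to this comparison after the data were seen (adjusted p = 0.0400 and 0.0539). Of all 252 miRNAs, 33 passed as higher and 24 as lower in this comparison in the deposited values. These numbers were 2 and 4 with the slide as a term and 0 and 4 with the replicate block. Scaled to the 75th percentile of the table's miRNAs they were 9 and 20, and without normalization 5 and 109. The number of members selected in both comparisons, 1, was 0 under the same 4 alternatives. It was 2 when scaled to the 75th percentile of all mouse miRNAs or with array weights. The cause was not tested, except that a single secondary array shares the slide of the control arrays. With each array left out in turn, these 3 numbers ranged from 0 to 2. They were all 0 without control replicate 1 or control replicate 2. Without secondary replicate 1 or 3 the first was 1 and the second 0. The second was 1 without either Rb-depleted primary array, and the third was 0 without Rb-depleted primary replicate 1 and 2 without secondary replicate 2. The numbers in the other 2 comparisons kept their count of 0 throughout. The within-array difference did not pass 0.05 in any setting. Without a secondary array it could not pass, because the smallest p possible in the exact permutation test was then 0.0667. Same-numbered arrays of different groups had correlations of deviations from their group means of -0.14 to 0.13. In a group of 2 arrays the deviations mirror each other, so these values are few. They cannot show whether same-numbered arrays were paired. With the replicate block, the differences between secondary and control cells were 0.40 and 0.35 (adjusted p = 0.136 and 0.177 by limma).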
